A study of Mus musculus with 4 samples.

Results

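Orphan CpG island peaks were ATAC-seq peaks that overlapped a CpG island (CGI) by at least 1 bp and whose summit lay more than 2 kb from every annotated transcription start site (TSS). A CGI was a stretch of at least 200 bp with a GC content of at least 50% and an observed over expected CpG ratio of at least 0.6 after repeat-masked bases were left out, and every TSS of any gene type in GENCODE M21 was used. Only autosomes were searched. Of 115311 autosomal peaks in 4 lists, 1412 met these conditions, with 566 in replicate 1 of the control group (Ctrl 1), 53 in replicate 2 (Ctrl 2), and 270 and 523 in replicates 1 and 2 of the conditional knockout (cKO 1 and cKO 2). Merged wherever they overlapped, they formed 661 regions. Only the summit was tested for distance, so the island of such a peak may itself lie within 2 kb of a TSS or contain one. Orphan islands, counted apart from the peaks, are those with no TSS within 2 kb of any of their bases. The value given for a region in a library is the fragment depth at the summit of the peak there, also where that peak's own summit lay within 2 kb of a TSS, and a library without a value had no peak.

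ATAC-seq maps open chromatin by the places where the Tn5 transposase inserts adapters. The nuclei came from hippocampi of mice at postnatal day 0 (P0), and each of the 4 libraries gave 1 peak list. The 2 cKO libraries carried the genotype Kdm2bEmx1-delta-CxxC, in which Emx1-Cre, active in the progenitors of the dorsal telencephalon and their descendants, deletes the exon for the CxxC zinc finger of KDM2B. The 2 Ctrl libraries were labelled Kdm2bfl/+ or Kdm2bfl/fl, without saying which library is which, so all 4 carried at least 1 floxed allele. Cells of the dissected tissue that do not descend from Emx1-expressing progenitors keep the exon in cKO. The titles and protocols name hippocampus while the source field names neural progenitor cells, and nothing in the labels says whether libraries came from separate animals, so p-values measure only the spread between these libraries.

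CpG islands are CpG-rich stretches that escape most DNA methylation, and most of them sit at promoters. Islands away from any annotated promoter are called orphan islands, and some of them act as enhancers or as starts of unannotated or tissue-restricted transcripts. The CxxC zinc finger of KDM2B binds unmethylated CpG and brings a variant Polycomb repressive complex 1 to islands, where it ubiquitinates histone H2A. Orphan islands are therefore a place to ask whether loss of the zinc finger goes with a change in open chromatin.

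The libraries stood apart in ways that the genotypes do not give. Ctrl 2 had the highest mean genome depth as recovered from its list (3.46 fragments at a base, against 1.62 to 2.07 in the others) but the fewest autosomal peaks (6457 against 20643 to 45082), and 57.6% of its peaks were repeat-masked against 4.88 to 13.4%. Of 12 promoters of dorsal telencephalon and hippocampus genes, 11 had a peak in Ctrl 1, 2 in Ctrl 2, 9 in cKO 1 and 12 in cKO 2. None of 4 microglial and 6 other-tissue promoters had a peak in any list. Promoters of 5 interneuron genes had 3, 0, 0 and 1 peaks in that order, 4 oligodendrocyte genes had 2, 0, 0 and 1, 4 endothelial genes had 1, 0, 1 and 0, and 3 choroid plexus genes had 2, 0, 2 and 2. Exon 13 of Kdm2b overlapped no peak in any list, so the lists do not check the deletion. Results are given with and without Ctrl 2 where it decides them.

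The sequences below are the 300 bases round the summit of 8 regions, shown in mm10 and read from the RefSeq copy of GRCm38, with each CpG in capitals. The Jarid2 and Tmtc2 windows are shown because they carry the same stretch on opposite strands, the Nfib, Tbr1 and Lef1 windows because they lie at genes of forebrain development and Wnt signaling, the Cbx8 window for a Polycomb gene, the Trappc9 window because all 4 lists held it without a copy elsewhere, and the Mir124-2hg window because only cKO lists held it.
Jarid2 intron, chr13:44869486-44869785, plus strand: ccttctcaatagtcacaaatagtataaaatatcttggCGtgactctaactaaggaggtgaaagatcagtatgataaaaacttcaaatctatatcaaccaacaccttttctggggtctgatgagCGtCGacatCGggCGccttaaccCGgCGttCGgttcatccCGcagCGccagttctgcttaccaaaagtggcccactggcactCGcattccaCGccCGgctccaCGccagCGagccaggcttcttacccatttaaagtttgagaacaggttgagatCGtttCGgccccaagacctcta
Tmtc2 intron, chr10:105238307-105238606, plus strand: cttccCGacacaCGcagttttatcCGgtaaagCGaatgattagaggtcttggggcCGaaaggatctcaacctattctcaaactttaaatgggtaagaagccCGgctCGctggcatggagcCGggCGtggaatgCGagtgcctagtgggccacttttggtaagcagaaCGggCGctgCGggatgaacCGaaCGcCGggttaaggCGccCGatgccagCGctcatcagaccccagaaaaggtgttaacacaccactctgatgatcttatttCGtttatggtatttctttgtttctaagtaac
Nfib intron, chr4:82513129-82513428, plus strand: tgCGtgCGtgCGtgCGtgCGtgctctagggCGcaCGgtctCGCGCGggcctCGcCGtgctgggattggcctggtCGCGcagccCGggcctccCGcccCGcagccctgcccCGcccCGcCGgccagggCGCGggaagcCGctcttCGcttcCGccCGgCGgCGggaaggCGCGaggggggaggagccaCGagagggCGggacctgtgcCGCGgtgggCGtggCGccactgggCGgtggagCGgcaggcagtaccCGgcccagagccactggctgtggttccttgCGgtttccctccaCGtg
Tbr1, intergenic, chr2:61815049-61815348, plus strand: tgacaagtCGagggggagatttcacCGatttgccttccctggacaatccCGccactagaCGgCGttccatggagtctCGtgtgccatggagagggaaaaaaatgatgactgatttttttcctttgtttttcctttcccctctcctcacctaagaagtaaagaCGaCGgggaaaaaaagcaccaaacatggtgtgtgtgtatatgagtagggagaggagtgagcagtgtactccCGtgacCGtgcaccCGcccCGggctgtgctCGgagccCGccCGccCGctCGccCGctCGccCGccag
Lef1, intergenic, chr3:131105938-131106237, plus strand: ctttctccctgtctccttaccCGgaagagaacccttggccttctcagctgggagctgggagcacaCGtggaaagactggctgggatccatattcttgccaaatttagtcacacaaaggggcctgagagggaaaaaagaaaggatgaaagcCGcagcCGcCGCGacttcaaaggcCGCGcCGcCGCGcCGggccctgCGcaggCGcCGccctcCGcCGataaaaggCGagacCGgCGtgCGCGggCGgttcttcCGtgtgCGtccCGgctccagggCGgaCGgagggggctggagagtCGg
Cbx8, intergenic, chr11:119053326-119053625, plus strand: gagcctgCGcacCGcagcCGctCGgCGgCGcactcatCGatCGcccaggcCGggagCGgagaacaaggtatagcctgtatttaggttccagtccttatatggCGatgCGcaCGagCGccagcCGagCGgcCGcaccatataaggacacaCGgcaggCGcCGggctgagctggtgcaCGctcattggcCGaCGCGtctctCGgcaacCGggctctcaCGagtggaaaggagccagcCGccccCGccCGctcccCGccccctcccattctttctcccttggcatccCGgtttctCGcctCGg
Trappc9, intergenic, chr15:73067455-73067754, plus strand: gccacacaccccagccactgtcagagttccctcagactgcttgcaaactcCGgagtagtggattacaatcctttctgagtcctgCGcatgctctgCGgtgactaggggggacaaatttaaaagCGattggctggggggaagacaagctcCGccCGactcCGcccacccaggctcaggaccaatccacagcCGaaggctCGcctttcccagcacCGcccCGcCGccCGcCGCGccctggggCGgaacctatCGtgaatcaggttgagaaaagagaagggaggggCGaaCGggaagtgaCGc
Mir124-2hg, intergenic, chr3:17786171-17786470, plus strand: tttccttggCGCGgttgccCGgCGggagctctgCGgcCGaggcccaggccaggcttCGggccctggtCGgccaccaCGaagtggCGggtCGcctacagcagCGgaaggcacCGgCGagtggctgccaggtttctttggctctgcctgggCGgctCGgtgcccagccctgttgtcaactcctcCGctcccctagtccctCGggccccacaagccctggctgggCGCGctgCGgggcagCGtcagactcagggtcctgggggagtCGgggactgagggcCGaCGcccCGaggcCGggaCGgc
The Nfib window held 41 CpG in 300 bases, the Cbx8 window 34, the Lef1 window 29 and the Mir124-2hg window 28. The Tbr1, Trappc9 and Tmtc2 windows held 20 each and the Jarid2 window 17.

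Orphan islands were open far less often than promoter islands in each library. Of 2143 autosomal islands with no TSS within 2 kb, a peak overlapped 25.4% in Ctrl 1 (95% Wilson interval 23.6 to 27.3%), 2.38% in Ctrl 2 (1.81 to 3.12%), 12.0% in cKO 1 (10.7 to 13.5%) and 22.8% in cKO 2 (21.1 to 24.6%). Of 13505 promoter islands, peaks overlapped 75.4% in Ctrl 1, 9.92% in Ctrl 2, 51.8% in cKO 1 and 72.7% in cKO 2. Promoter islands led by 36.8 ± 20.1 percentage points (mean ± SD over 4 libraries), and the lead was positive in all 4 (exact sign-flip permutation test, two-sided, p = 0.125, Benjamini-Hochberg adjusted over 3 tests 0.188). The smallest p that 4 libraries allow is 0.125. These intervals cover counting error only. In a mixed tissue, fewer cells with an open island and less opening in each cell cannot be told apart.

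**Figure D1:**
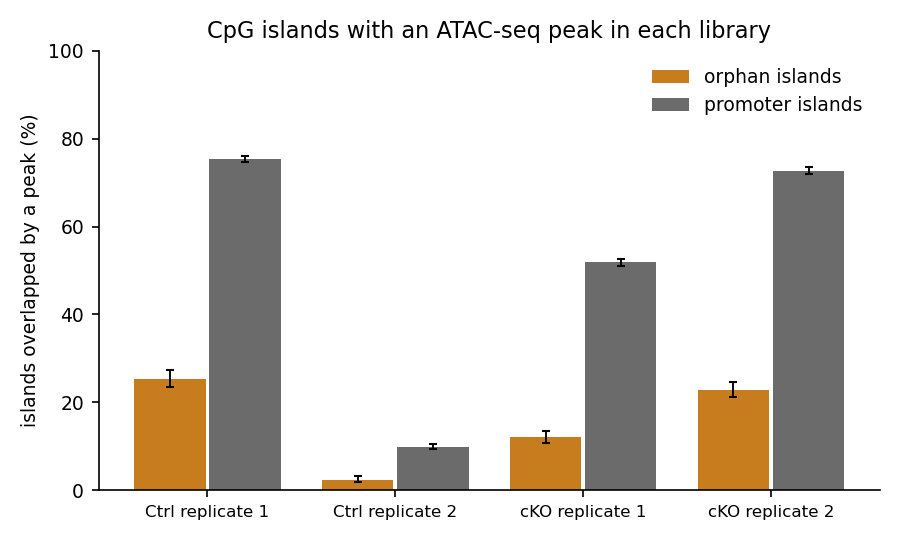
Share of CpG islands overlapped by a peak (y axis, %) in each library (x axis), for 2143 orphan islands and 13505 promoter islands. Bars show 1 library each and error bars the 95% Wilson interval. Orphan islands range from 2.38 to 25.4% and promoter islands from 9.92 to 75.4%, and the library with the lowest share is Ctrl 2 in both sets.

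In each library the longest orphan islands were open more often than the shortest. In Ctrl 1, 13.5% of orphan islands of 200 to 242 bp held a peak, and 40.0% of those of 487 bp or more. The corresponding shares were 1.67% and 4.503% in Ctrl 2, 4.81% and 20.3% in cKO 1, and 10.9% and 35.5% in cKO 2. In Ctrl 2 the share at 243 to 323 bp was 1.12%, below that of the shortest class. Promoter islands of the same lengths were open more often than orphan islands in every length class of every library, with 40.4% against 13.5% in the shortest class and 83.6% against 40.0% in the longest in Ctrl 1. In Ctrl 2 the shortest class showed almost no gap (1.75% against 1.67%). The longest class has no upper limit, and promoter islands reach 11629 bp there against 3334 bp for orphan islands.

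**Figure D2:**
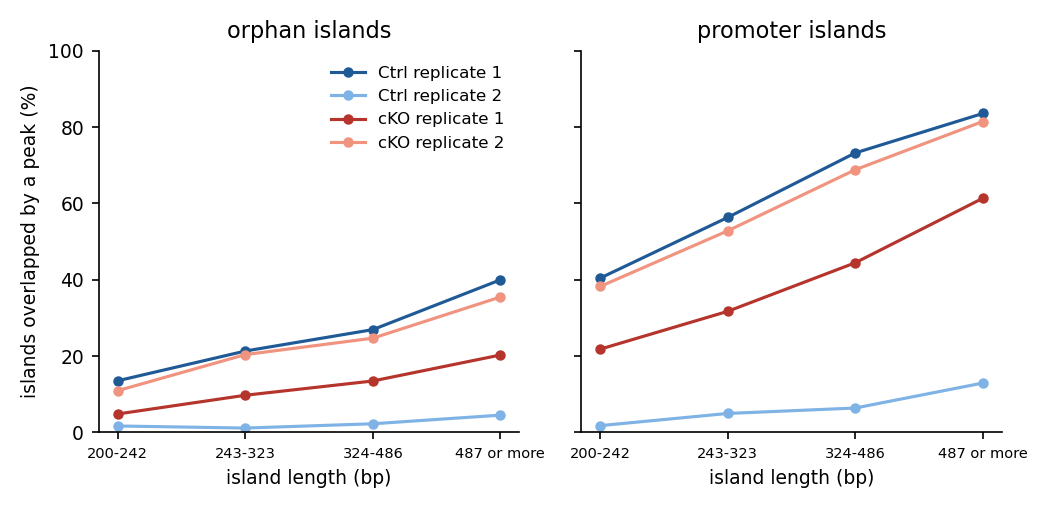
Share of islands overlapped by a peak (y axis, %) by island length (x axis, bp, 4 classes with near-equal numbers of orphan islands) for orphan islands (left) and promoter islands (right). Lines are libraries. From the shortest to the longest class the orphan share in Ctrl 1 goes from 13.5 to 40.0% and the promoter share from 40.4 to 83.6%.

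Where an orphan island lay also went with whether it was open. Intergenic orphan islands held a peak in at least 1 list for 335 of 746 (44.9%), intronic ones for 145 of 432 (33.6%) and those in coding exons for 113 of 883 (12.8%). Their median lengths were 332, 299 and 325 bp, and whether length accounts for the difference was not tested. Among the 661 open regions, by the position of the summit, 343 were intergenic, 170 intronic, 107 in coding exons, 27 in untranslated regions and 14 in noncoding exons. Coding exons held 41.2% of all orphan islands, placed by their middle, and 16.2% of the open regions, placed by the summit. These are not the same sets, since the island of a region may have a TSS within 2 kb. Among orphan islands alone, 12.8% of those in coding exons and 28.7% of all had a peak in at least 1 list. Coding exons held 0.852% of the 38268 distal regions without an island. Ctrl 2 had 1 of its 53 orphan peaks in a coding exon, and cKO 1 had 20 of 270, Ctrl 1 94 of 566 and cKO 2 73 of 523.

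Open orphan regions lay nearer to a TSS than other distal regions. Their median distance was 7796 bp, with 217 of 661 between 2 and 5 kb and 28 beyond 50 kb. Distal regions without an island had a median distance of 19448 bp, with 12.9% between 2 and 5 kb and 22.2% beyond 50 kb. The rule sets the lower limit of 2 kb for both. The summit itself fell inside the island in 494 regions (74.7%). The 3 members nearest to the limit had summits 2005 bp from Mir17hg (25 fragments, cKO 2), 2020 bp from Nup160 (40 fragments, cKO 2) and 2021 bp from Gp5 (10 fragments, Ctrl 1). The nearest island peaks left out lay 2000 bp from Apold1 (32 fragments), 1999 bp from Fzd8 (38 fragments) and 1992 bp from Csmd3 (22 fragments), all in Ctrl 1.

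An orphan island is orphan only with respect to an annotation. With RefSeq's annotation of the same build, 147 of the 661 regions (22.2%) had a transcript start within 2 kb of the summit, 40 of them (6.05%) a curated one. Among regions named further on, outside the repeated families, Gdnf had a curated RefSeq start 713 bp from the summit, Plxnb2 721 bp and Fzd8 1384 bp, while Jag1 had a predicted one at 1066 bp and Sfrp2 at 1483 bp. Other RefSeq transcripts started 341 bp from the Mir124-2hg region (Gm30340), 198 bp from the Sox4 region (Gm46405), 765 bp from the Wnt11 region (Gm39054), 1361 bp from the Otx1 region (Gm32517), 1890 bp from the Lef1 region (Gm36603), 625 bp from the region nearest Ccr1 (Gm51701) and 75 bp from a region near Wnt7b (D130051D11Rik).

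The fragment depth at the summit, recovered from the deposited fold and p-value, set orphan peaks between the other classes in 3 of the 4 libraries. In Ctrl 1 the median orphan peak rested on 21 fragments, against 37 for promoter island peaks and 15 for distal peaks without an island. The medians were 27, 21 and 20 in Ctrl 2, 20, 24 and 16 in cKO 1, and 23, 35 and 17 in cKO 2. Orphan peaks exceeded distal peaks without an island by 0.42 ± 0.07 on the log2 scale (mean ± SD, 4 libraries, exact sign-flip permutation p = 0.125, adjusted 0.188) and were higher in all 4. Against promoter island peaks the log2 difference was −0.33 ± 0.52, lower in 3 libraries and higher in Ctrl 2 (exact p = 0.375, adjusted 0.375). When each list was shortened to its strongest 6457 peaks, the number in the smallest list, this difference was 0.21 with orphan peaks higher in all 4 (exact permutation p = 0.125). The order of orphan and promoter island peaks thus depends on how far down the lists go.

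Most of the strongest orphan regions held by all 4 lists repeated a sequence found elsewhere. A region was called as sharing sequence when its 300-base window aligned to another place on a chromosome over at least 270 bases at 90% identity, or to the window of another orphan region over at least 100 bases at 90%. This held for 74 of 661 regions (11.2%), for 22 of the 43 with a peak in all 4 lists (51.2%), and for 9 of the 10 strongest by their mean rank within the lists. It also held for 29 of the 52 regions with a peak in Ctrl 2, against 60 of 582 in Ctrl 1. No window matched the mitochondrial genome at 80% identity. Whether fragments from other copies add to the depth at these regions was not tested.

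The single strongest was an intergenic region on chromosome 3 (chr3:5860343-5860761), with 3235 fragments at the summit in Ctrl 1, 1184 in Ctrl 2, 2351 in cKO 1 and 2006 in cKO 2. Its best copy, on chromosome 2, was 97.1% identical. The next lay in an intron of Jarid2 (chr13:44869569-44870017), the gene of an accessory subunit of Polycomb repressive complex 2, with 1214, 545, 1072 and 863 fragments in the same order. An intron shared by Cmss1 and Filip1l (chr16:57391123-57391663) had 1002, 527, 862 and 604, and an intron of Arhgap21 (chr2:20899855-20900202) had 640, 283, 554 and 403. In fragments Ctrl 1 was highest and Ctrl 2 lowest in these 4 regions, which put the cKO libraries between the 2 Ctrl libraries. As log2 depth centred on the median of each library, cKO 1 was highest and cKO 2 lowest in all 4. The Ctrl libraries then lay between them. At Jarid2 the centred values were 4.36, 4.51, 4.94 and 3.90 in Ctrl 1, Ctrl 2, cKO 1 and cKO 2.

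**Figure D3:**
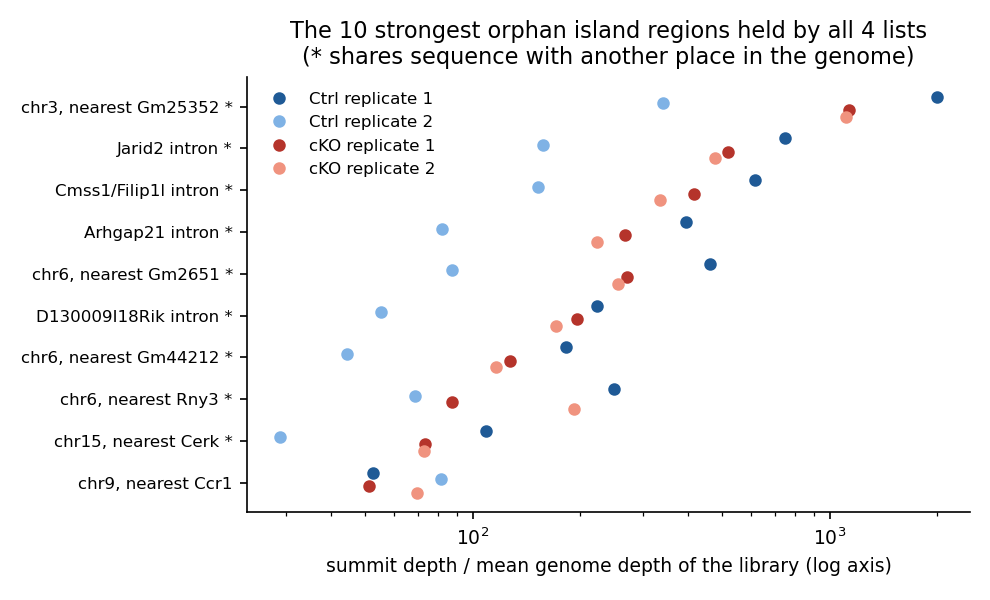
Summit depth divided by the mean genome depth of the library (x axis, log scale) for the 10 regions with an orphan peak in all 4 lists and the highest mean rank (y axis). Points are libraries, with 1 value each. Ctrl 2 is the lowest library in 9 regions and the highest in the region nearest Ccr1, where its depth was 282 fragments against 85, 106 and 126.

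A family of 9 regions on 9 chromosomes was linked by alignments between their windows. It comprised the Jarid2, Filip1l and Arhgap21 introns, introns of D130009I18Rik (chr14:104715779-104716071), Gm19951 (chr12:99645132-99645675) and Tmtc2 (chr10:105238325-105238544), and intergenic regions near Cerk (chr15:86194882-86195252), Gm44212 (chr6:44792935-44793229) and Gm45677 (chr8:15519813-15520118). The Filip1l and Arhgap21 windows were 99.6% identical over 246 bases and the Jarid2 and Tmtc2 windows 95.6% identical over 203 bases, on opposite strands, as can be read in the sequences printed for both. Their sequence resembles large-subunit ribosomal RNA, a likeness given here as background and not aligned to that gene. Of the family, 8 regions had a peak in all 4 lists, with 99 to 1214 fragments in Ctrl 1, 56 to 545 in Ctrl 2, 81 to 1072 in cKO 1 and 61 to 863 in cKO 2, and the Tmtc2 region had a peak in the cKO lists only. A further region on chromosome 6 (chr6:3200776-3201556; 750, 302, 561 and 461 fragments) matched Rn18s-rs5, a sequence related to small-subunit ribosomal RNA on chromosome 17, at 99.0% over its whole window.

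The largest family was a tandem array. Between positions 47650849 and 47778687 of chromosome 6 lay 18 orphan regions, of which 17 belonged to a family of 19 that also had 2 regions nearest Gm43907 and Klrb1c on the same chromosome. GENCODE M21 has no TSS inside the array, but 13 windows of the family matched the RefSeq gene Rn4.5s (chr6:47654921-47655094), which encodes a small cytoplasmic RNA of rodents, at 90.5 to 100% identity. The matches covered 44 to 119 bases of the windows, and the gene is 174 bases long. All 19 had a peak in Ctrl 1, cKO 1 and cKO 2, and 7 in Ctrl 2. Median depths were 283 fragments in Ctrl 1, 92 in Ctrl 2, 130 in cKO 1 and 234 in cKO 2. The Ctrl 2 median rests on 7 regions. Among these 7 the order of the libraries varied, with cKO 1 (181) below Ctrl 2 (239) at chr6:47752720-47754371, and with 53, 40, 30 and 61 fragments in Ctrl 1, Ctrl 2, cKO 1 and cKO 2 at chr6:47777943-47778687. On chromosome 14, 2 families of 5 regions each lay among runs of predicted genes such as Gm3173 and Gm3696, at 11 to 26 fragments in Ctrl 1.

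Without the regions that share sequence, the remaining 587 were shallow. Their median depth was 21 fragments in Ctrl 1, 20 in Ctrl 2, 19 in cKO 1 and 22 in cKO 2. At least 100 fragments were reached by 12 of 522 regions in Ctrl 1 and 12 of 471 in cKO 2, but by 1 of 240 in cKO 1 and 1 of 23 in Ctrl 2. The log2 difference from distal peaks without an island was then 0.28 (exact permutation p = 0.25). It was no longer positive in Ctrl 2, where both medians were 20 fragments. The difference from promoter island peaks was −0.47 (exact permutation p = 0.125). Only orphan peaks were filtered in this way. Distal and promoter island peaks were not searched for shared sequence and stayed in, so the classes were not treated alike.

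In numbers of orphan peaks the genotypes overlapped. The cKO lists held 396.5 ± 179 and the Ctrl lists 309.5 ± 363 (mean ± SD, n = 2 each), a difference of 87 (exact permutation test, two-sided, p = 1). As a share of autosomal peaks they were 1.26% in Ctrl 1, 0.821% in Ctrl 2, 1.31% in cKO 1 and 1.21% in cKO 2, a difference of 0.222 percentage points (exact permutation p = 0.667). In lists of equal length the shares were 1.89%, 0.821%, 1.52% and 1.63% (exact permutation p = 1), with both cKO libraries between the 2 Ctrl libraries. Open orphan islands were 17.4 ± 7.62% in cKO and 13.9 ± 16.3% in Ctrl (exact permutation p = 1). All 4 adjusted p-values were 1, and with 2 libraries a group no p can fall below 0.333. Without Ctrl 2 the difference was −169.5 peaks, −0.317 percentage points in equal-length lists and −7.96 percentage points of orphan islands, each opposite in sign to the value with all 4 libraries, while the share of autosomal peaks differed by 0.00481 percentage points. Signs also turned without cKO 2 for peaks (−39.5) and orphan islands (−1.84 percentage points), and without repeat-masked peaks for the share of autosomal peaks (−0.228 percentage points).

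At regions shared by all lists no difference in depth was called. limma was fitted to the log2 depth of all 3058 autosomal regions with a peak in all 4 lists, and 40 orphan regions entered it. It called 0 regions at an adjusted p of 0.05 (0% of those tested), 0 orphan regions among them, and 0 had an unadjusted p under 0.05. No other tool was run. The log2 differences (cKO minus Ctrl) of the 40 orphan regions ran from −0.68 to 0.65 with a median of 0.03 and a median standard error of 0.81. Of these differences 21 were above 0 and 19 below. The median depended on the Ctrl libraries. Without Ctrl 2 it was −0.19 over 255 orphan regions (−0.04 over all 17892 tested), and without Ctrl 1 it was 0.49 over 42 (−0.66 over all 3515). In these fits the spread comes from the 2 cKO libraries and the lone Ctrl library is assumed to vary like them. Again 0 regions were called, and an unadjusted limma p under 0.05 was found for 5.49% of orphan regions against 7.34% of all without Ctrl 2, and for 7.14% against 24.3% without Ctrl 1. Both cKO values lay above both Ctrl values in 0 orphan regions, where 4.38% of all tested regions did so, and below in 2, where 1.24% did.

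Those 2 regions were a member of the chromosome 6 array (chr6:47752720-47754371), with 404, 239, 181 and 347 fragments in Ctrl 1, Ctrl 2, cKO 1 and cKO 2, and a region in an intron of Gdnf (chr15:7812862-7813980), with 44, 16, 20 and 35. Gdnf encodes a neurotrophic factor. The log2 differences after centring were −0.57 ± 0.77 (standard error) and −0.26 ± 1.04, both with a limma adjusted p of 0.9999. In uncentred fragments the groups overlapped in both.

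The cKO replicates differed from each other in depth. In the 274 orphan regions with a peak in Ctrl 1, cKO 1 and cKO 2, the median summit depth was 25.3 times the mean genome depth in Ctrl 1, 9.64 in cKO 1 and 21.6 in cKO 2. The cKO 1 value was the lowest of the 3 in 256 of the 274 (93.4%), against 92.1% of 17892 such regions of all classes. Ctrl 1 was the highest of the 3 in 74.5% of orphan regions and 61.3% of all.

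Of 284 orphan regions with a peak in cKO 1, 98.6% had one in cKO 2 and 97.5% in Ctrl 1, against 92.2% and 90.1% of the regions of all classes. Of 530 with a peak in cKO 2, 86.6% had one in Ctrl 1 (78.4% over all classes), and of 582 in Ctrl 1, 78.9% had one in cKO 2 (74.8%). Of 52 with a peak in Ctrl 2, 82.7% had one in Ctrl 1 and 86.5% in each cKO list, against 55.03% in Ctrl 1, 65.6% in cKO 1 and 63.2% in cKO 2 over all classes. The commonest patterns were a peak in Ctrl 1 and both cKO lists (231 regions, 34.9%), in Ctrl 1 and cKO 2 (185), in Ctrl 1 alone (120) and in cKO 2 alone (65). Both cKO lists and neither Ctrl list held 4 regions (0.605%), against 0.693% of 56723 merged regions of all classes. Both Ctrl lists and neither cKO list held 0, against 0.287%. Both shares were near their background. Without Ctrl 2 the difference of the counts was −114 instead of 4, and without Ctrl 1 it was 228, since a group with 1 library then counts what that library alone holds or lacks.

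**Figure D4:**
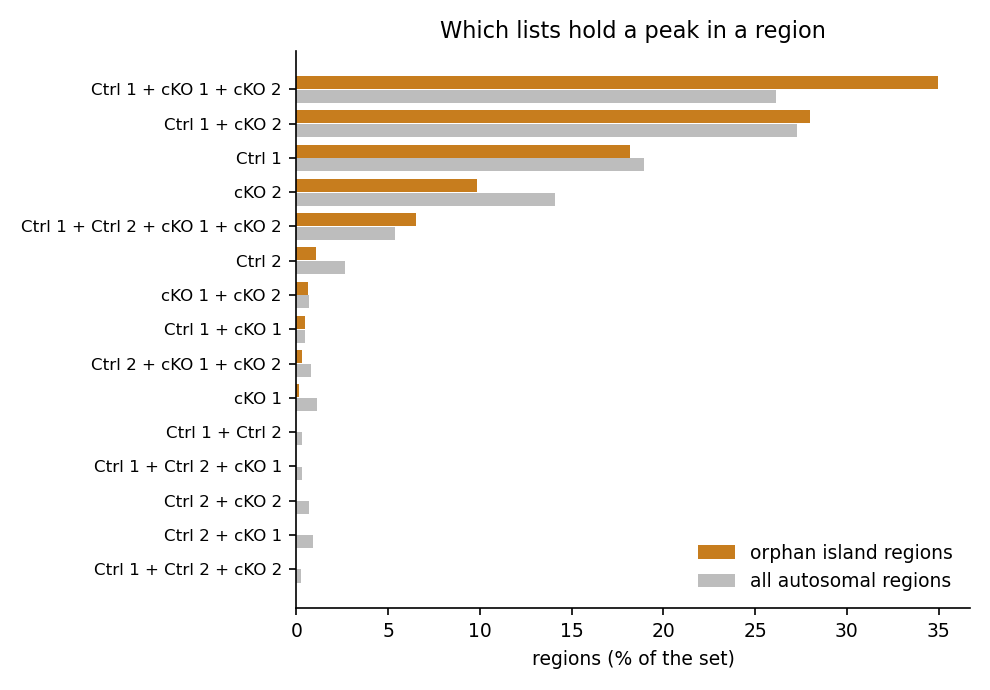
Share of regions (x axis, %) by the set of lists that hold a peak there (y axis), for 661 orphan island regions and 56723 autosomal regions of all classes. Bars have no replicates. Most orphan regions are held by Ctrl 1 with cKO 2, with or without cKO 1, and 0.605% are held by the cKO lists alone.

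The best ranked of the 4 regions held by the cKO lists alone was the Tmtc2 intron, with 70 fragments in cKO 1 and 35 in cKO 2, and it belonged to the family of 9. Tmtc2 encodes a membrane protein of the endoplasmic reticulum. A region 6346 bp from Barhl2 (chr5:106451603-106452110), a homeobox gene of the diencephalon and spinal cord, had 11 and 16 fragments, only one of the peaks meeting the rule. A region 3600 bp from Mir124-2hg (chr3:17786028-17786616), a host transcript of the neuronal microRNA miR-124, had 12 and 19. The fourth, in an untranslated region of Upf1 and 2444 bp from Gdf1 (chr8:70332139-70332496), had 13 and 26. The lowest depth of any orphan peak was 7 fragments in Ctrl 1 and 13 in Ctrl 2, close to the lower of the depths at Barhl2, Mir124-2hg and Gdf1 but well under those at Tmtc2. A missing peak does not show closed chromatin.

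The median CpG content of orphan regions lay just above that of orphan islands without a peak and below that of promoter island regions. The rule selects on it through the island, so the values are descriptive. A median of 23 CpG lay in 300 bases round the summit of orphan regions, 27 in promoter island regions, 3 in distal regions without an island and 22 in the middle of orphan islands without a peak. The open orphan islands were longer than those without a peak (median 404 against 298.5 bp), had more CpG (40 against 25) and a higher observed over expected ratio (0.919 against 0.867).

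**Figure D5:**
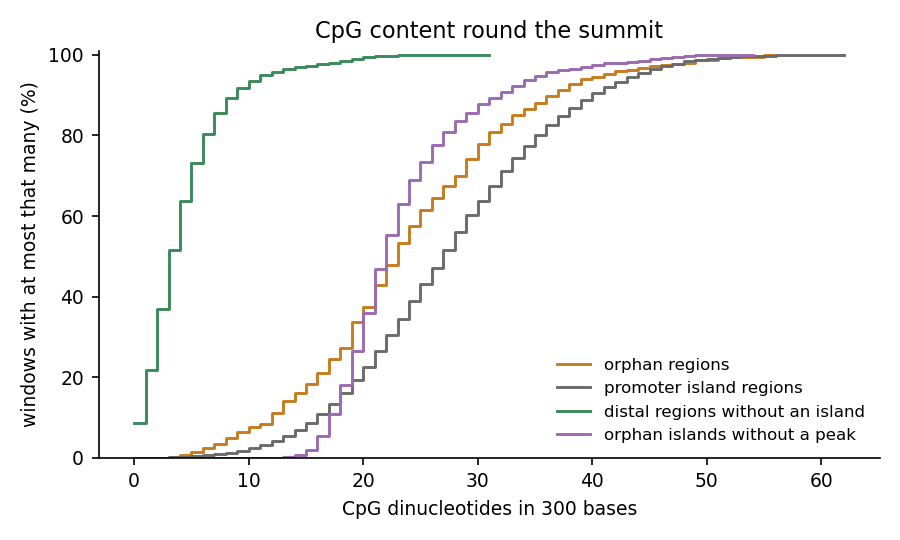
Cumulative share of 300-base windows (y axis, %) by number of CpG dinucleotides (x axis) for orphan regions, promoter island regions, distal regions without an island and orphan islands without a peak. The medians are 23, 27, 3 and 22 CpG.

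Letters bound by common factors were searched on both strands in the same windows. No searched string contains another, though those for YY1 and the E-box overlap. The SP/KLF box GGGCGG was found in 54.3% of orphan windows, 72.7% of promoter island windows, 6.43% of distal windows without an island and 37.5% of orphan islands without a peak. The ETS string CCGGAAGT was in 2.42%, 7.72%, 0.233% and 1.11% of windows in that order, the NRF1 string GCGCATGCG in 2.12%, 3.56%, 0.141% and 0.654%, and the CRE string TGACGTCA in 1.97%, 3.52%, 0.374% and 0.785%. The core of the CTCF motif was in 1.97%, 0.843%, 2.38% and 0.196%. A proneural E-box, CAGATGG, was in 5.45%, 3.14%, 17.1% and 7.53%. Orphan windows lay between promoter islands and orphan islands without a peak for SP/KLF, ETS, NRF1 and CRE, and nearest to distal windows for CTCF. The strings for SP/KLF, ETS, NRF1 and CRE, and those given next for YY1, REST and ZFP57, each hold a CpG. The rule selects on CpG, so their shares are descriptive. The YY1 string AAGATGGCG was in 0.908%, 3.47%, 1.36% and 0.262%, and the REST string GGACAGCGC in 1.51%, 1.22%, 0.0915% and 0.589%. The RFX string GTTGCCATG was in 1.06%, 0.733%, 0.967% and 0.262%, the TCF/LEF string ATCAAAGG in 0.454%, 0.449%, 1.20% and 0.851%, and the ZFP57 string TGCCGC in 22.7%, 26.9%, 4.27% and 23.6%. A match is a run of letters and not a bound site.

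Gene groups were read from the gene that hosts the summit or owns the nearest TSS. For orphan islands the middle of the island took the place of the summit, and islands with a TSS within 2 kb were left out. Shares of orphan regions and of orphan islands thus come from different sets. Of the 73 Wnt pathway genes, 6 had such a region, 7 regions in all (1.06% of orphan regions, against 1.26% of all orphan islands and 0.384% of distal regions without an island). Among ligands, Wnt11 had a region 19746 bp away (chr7:98815001-98815973) with 36 fragments in Ctrl 1 and 35 in cKO 2, and Wnt10a had 2, in a coding exon (chr1:74803173-74803496; 18 and 18) and intergenic (chr1:74816743-74817227; 13 and 15). A peak 6247 bp from Wnt2b (chr3:104967706-104968240) had 10 fragments in each of these libraries. None of these had a peak in Ctrl 2 or cKO 1. Of the 27 orphan islands at Wnt pathway genes, a peak overlapped 22.2% in Ctrl 1 and 0% in Ctrl 2. The shares were 3.70% in cKO 1 and 22.2% in cKO 2. Over all orphan islands they were 25.4%, 2.38%, 12.0% and 22.8% in the same order.

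Downstream in the pathway, Lef1, which encodes a transcription factor that acts with β-catenin, had a region 4383 bp from its TSS (chr3:131105828-131106455) with 30 fragments in Ctrl 1, 13 in cKO 1 and 35 in cKO 2. The secreted Wnt modulator Sfrp2 (chr3:83764038-83764482) had 16, 11 and 17 and the receptor Fzd8 (chr18:9213819-9214759) 38, 26 and 36 in that order. None of the 3 had a peak in Ctrl 2. At Fzd8 only the cKO 1 peak met the rule, and the island there, of 2782 bp, contains the Fzd8 TSS. At Sfrp2 the Ctrl 1 peak did not meet the rule. In fragments the Ctrl 1 value lay between the cKO values at Lef1 and Sfrp2 and above both at Fzd8, but divided by the mean genome depth it was above both at Sfrp2 as well (9.86 against 5.30 in cKO 1 and 9.41 in cKO 2). A region 52198 bp from the nearest coding TSS, that of Wnt7b (chr15:85634401-85635123), was chosen after its values were seen because all 4 lists held it, with 77, 23, 37 and 98 fragments.

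Transcription factors of the forebrain had 19 regions at 16 of 81 annotated genes (2.87% of orphan regions, 3.08% of orphan islands), with a peak in 16 of them in Ctrl 1, 0 in Ctrl 2, 9 in cKO 1 and 16 in cKO 2. A region in Nfib (chr4:82512872-82513532), a factor of hippocampal and glial development, had 63 fragments in Ctrl 1, 34 in cKO 1 and 54 in cKO 2. The values were 43, 15 and 30 near Tbr1 (chr2:61814977-61815397), a factor of glutamatergic neurons, 39, 26 and 25 in Otx1 (chr11:21996486-21997288) and 22, 19 and 21 near Sox4 (chr13:28958534-28959982). In these 4 regions Ctrl 1 was the highest library with a peak, as it was in 74.5% of orphan regions and 61.3% of all regions with a peak in these 3 lists, by depth over the mean genome depth. Ctrl 2 had no peak in any of the 4.

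Developmental factors of other tissues were seldom open at their orphan islands. Of 87 such islands, 9 had a peak in Ctrl 1 (10.3%) and 0 in Ctrl 2. In cKO 1 there were 2 (2.30%) and in cKO 2 there were 10 (11.5%). All orphan islands stood at 25.4% in Ctrl 1, 2.38% in Ctrl 2, 12.0% in cKO 1 and 22.8% in cKO 2. The 87 islands had a median length of 402 bp, and all orphan islands one of 323 bp. The difference from all orphan islands was not tested, nor was length or position as its cause. Of the 66 islands at forebrain factors, 17 had a peak in Ctrl 1 (25.8%), 7 in cKO 1 (10.6%) and 17 in cKO 2 (25.8%). A region near Atoh1 (chr6:64734349-64735025), a proneural gene of the cerebellum, had 16, 12 and 13 fragments in Ctrl 1, cKO 1 and cKO 2, and the 2 regions at Lmx1a (chr1:167660632-167661268 and chr1:167802386-167803187), a gene of the roof plate and cortical hem, had 43, 18 and 40 and 17, 16 and 25.

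Of 36 Polycomb and KDM2 genes, Jarid2, Cbx7 and Cbx8 had 6 regions (0.908% of orphan regions, against 0.560% of orphan islands). Of 12 orphan islands at genes of this list, 6 had a peak in at least 1 list, against 28.7% of all orphan islands. Beside the Jarid2 intron, 4 lay near Cbx8, which encodes a chromobox subunit of Polycomb repressive complex 1. The strongest of these (chr11:119053223-119053863) had 39 fragments in Ctrl 1, 22 in cKO 1 and 40 in cKO 2. The others near Cbx8 and the intronic region of Cbx7 (chr15:79927767-79928013), another chromobox gene, had 12 to 18 fragments in at most 2 lists. Kdm2b itself had no orphan region.

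Among 57 imprinted genes, whose expression depends on the parent of origin, 2 regions were found (0.303% of orphan regions, against 0.467% of orphan islands). The one 6401 bp from Trappc9 (chr15:73067338-73067874) had a peak in all 4 lists, with 174 fragments in Ctrl 1, 32 in Ctrl 2, 69 in cKO 1 and 177 in cKO 2, and did not share sequence. The other lay in H13 (chr2:152707518-152707967) with 19 in Ctrl 1 and 23 in cKO 2. At Trappc9 the higher replicate of each genotype was at 174 or 177 fragments and the groups overlapped.

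Axon guidance genes had 6 regions at 6 of 67 genes, 3 of them with a peak in Ctrl 1, 0 in Ctrl 2, 1 in cKO 1 and 6 in cKO 2. They were 0.908% of orphan regions, against 0.747% of orphan islands, and a peak overlapped 18.8%, 0%, 6.25% and 37.5% of the 16 islands at these genes, against 25.4%, 2.38%, 12.0% and 22.8% of all orphan islands. The intron of the ephrin receptor gene Epha3 (chr16:63857057-63857832) had 25 fragments in Ctrl 1, 14 in cKO 1 and 39 in cKO 2. Introns of Plxnb2, a semaphorin receptor gene (chr15:89172821-89173448; 16 and 21), and Unc5a, a netrin receptor gene (chr13:54955877-54956484; 14 and 18), were open in Ctrl 1 and cKO 2. Introns of Ephb2 and Nrp2 and a region near Efna2 had a peak in cKO 2 alone, with 10 to 15 fragments.

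BMP, Notch and hedgehog genes had 6 regions at 5 of 47 genes (0.908% of orphan regions, against 0.653% of orphan islands). Of 14 orphan islands at these genes 4 had a peak in at least 1 list (28.6%), near the 28.7% of all orphan islands. Maml3, which encodes a coactivator of Notch, held 2 in introns, with 51, 17 and 37 fragments (chr3:51700760-51701803) and 31, 19 and 29 (chr3:52102047-52103134) in Ctrl 1, cKO 1 and cKO 2. The Notch ligand genes Dll4 (chr2:119337666-119338252; 22 and 14), Jag1 (chr2:137114260-137114902; 26 and 22) and Dll3 (chr7:28299131-28299616; 15 and 23) and a coding exon of the receptor gene Notch3 (chr17:32143254-32143716; 9 and 14) had a peak in Ctrl 1 and cKO 2 only.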

How the data were processed

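Peak lists from ATAC-seq of 4 libraries were used, 2 Ctrl and 2 cKO, grouped by the genotype in the labels. The authors trimmed the read ends with Cutadapt and mapped the reads to mm10 by Bowtie2. Blacklisted, mitochondrial and duplicate reads were then dropped, read ends were shifted for the Tn5 offset, and MACS2 2.2.7.1 called peaks from fragments of each library alone, with no control. The deposited lists give a display score, which was not used here, the fold enrichment at the summit, the −log10 p-value and the −log10 q-value.

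The fragment depth at each summit and the background rate were recovered from the deposited fold and p-value, which MACS2 derives from a Poisson model. For at least 99.986% of the summits of a list, a whole number of fragments gave a −log10 p within 0.01 of the deposited value. The lowest background rate gave the mean genome depth. Depth thus rests on the authors' scale, and a list holds only places that passed the calling threshold, so a missing peak sets no value. Values were compared as fragments, as fragments over the mean genome depth, or as log2 depth centred on the median of each library.

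CpG islands were built from GRCm38 with repeat-masked bases left out. Distances were taken to every transcript start of the comprehensive GENCODE M21 set. Motifs were searched by letters on both strands of 300-base windows, and alignments used blastn 2.17.0. Scripts ran in Python 3.11.15 with numpy 2.4.6, pandas 2.3.3 and scipy 1.17.1. Genotypes were compared by exact permutation of 6 assignments, peak classes by exact sign-flip over the 4 libraries, both two-sided, and depths at regions with a peak in all 4 lists by limma 3.58.1 in R 4.3.3 with Benjamini-Hochberg adjustment. The limma fit was tested on simulated data.

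Regions named were the 10 strongest by mean rank in all 4 lists, up to 3 held by a single genotype, those whose groups did not overlap, the strongest of each gene list and the 3 on each side of the 2 kb limit. Other regions are also given to account for the lists. A region that the rule names is not reported here. The members, gene lists and motifs were chosen with earlier results of these data known. Alternatives covered stricter islands, a stricter q-value, a 5 kb distance, the summit inside the island, no repeat-masked peaks, lists of equal length, other scalings and each library left out. Chosen after seeing the data were the basic TSS set, the removal of orphan regions that share sequence, and a crossed pairing.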

Additional observations from a re-analysis of the deposited data

How the results depend on the processing

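Over the libraries' mean, promoter islands were open more often than orphan islands, and orphan peaks deeper than distal peaks without an island, under every alternative run (island shares were not recomputed with the basic TSS set). Without orphan regions that share sequence the depth difference was 0.276 and no longer positive in Ctrl 2, but the other peak classes were not filtered. With 2 libraries a group no call could be made or lost in the permutation tests, so the limits lie in the signs. Without repeat-masked peaks the difference in the share of peaks (cKO minus Ctrl) was −0.228 percentage points instead of 0.222. In lists of equal length the log2 depth against promoter island peaks was 0.211 instead of −0.33. The excess of regions held by both cKO lists alone, 4, was 2 with stricter islands (at least 500 bp, a GC content of 55% and a ratio of 0.65) and 1 at 5 kb from a TSS. With each library left out in turn, the difference in orphan peaks per list ran from −169.5 to 343.5, in their share from 0.00481 to 0.439 percentage points, in lists of equal length from −0.317 to 0.751, in open orphan islands from −7.96 to 15.0 percentage points and in regions held by 1 genotype from −114 to 228. The negative values came without Ctrl 2 and, for orphan peaks (−39.5) and open orphan islands (−1.84), also without cKO 2. The lead of promoter islands ran from 32.4 to 46.6 percentage points, the log2 depth against promoter island peaks from −0.562 to −0.169 and that against distal peaks from 0.397 to 0.451. limma called 0 regions at every setting; without centring the median log2 difference of all regions was 0.55 and of orphan regions 0.59, and with quantile normalisation 0.13 and 0.36. With the basic TSS set 1858 peaks would be members. The cause of these shifts was not tested.

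The labels share replicate numbers without saying that a number pairs libraries. With a replicate block the differences were 87 peaks, 0.222 and 0.217 percentage points of peaks and 3.55 percentage points of islands, with an exact permutation p of at least 0.5, and limma called 0 regions. Deviations of same-numbered libraries had a correlation of −0.82 across regions, and with the crossed pairing limma also called 0.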
